A study of Mus musculus with 36 samples.

Results

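The comparison set the freshly dissociated cell suspension (CS) of mice lacking Nampt in hepatocytes (HNKO) against a piece of intact liver (L) from the same animals. Libraries were chosen by genotype, sample type and mouse number, which gave 12 of the 36 in the series, 6 HNKO CS and 6 HNKO L, from mice 540, 542, 546, 552, 562 and 566. HNKO mice carry floxed Nampt alleles and Alb-Cre, a recombinase driven by the albumin promoter, which removes the gene in hepatocytes. Whether the other cells of the liver keep the gene was not tested. WT mice, used here only to set the same step beside HNKO, carried the floxed alleles without Cre and gave 6 CS and 6 L libraries, of which 1 L library was left out. All mice were females of a C57BL6 (BomTac) background that ate a purified diet of defined L-amino acids for 3 to 5 weeks from an age of 10 to 12 weeks. Perfusion first cleared the blood, and part of the median lobe was then ligated, cut off and frozen as L. The rest was digested with collagenase, strained, washed and spun at low speed, and the pellet was frozen as CS. The comparison therefore also sets the other lobes against the median lobe, and digestion, washing and lobe cannot be told apart.

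Collagenase perfusion frees hepatocytes by digesting the matrix that holds them. Cells pulled out of a tissue are known to switch on immediate early genes, such as the transcription factors Fos and Jun, which need no new protein synthesis for their induction, and a low-speed spin that collects large hepatocytes leaves many smaller cells behind. Nampt, which makes nicotinamide mononucleotide from nicotinamide, is the rate-limiting enzyme of the NAD salvage route.

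Total counts were 14157949 to 20350519 in HNKO CS and 9688267 to 18165949 in HNKO L. Values are CPM (a gene's counts relative to the total count of its library) scaled by the TMM method. Fold changes are fitted log2 values of CS minus L with their standard error (SE), tested by the quasi-likelihood test of edgeR, and a gene is called when its p, adjusted by the method of Benjamini and Hochberg over all genes, is below 0.05. Same-numbered libraries came from the same mouse, and the test with mouse as a block, over the 35 libraries used, is given for the lists and genes whose calls it alters. Mouse 552 lay far from the other 5 for several genes and gene lists in both sample types, and several results that lean on it are given with and without it. Across all genes mouse 540 also lay apart, and leaving it out lowered the number of calls most. Alb, the albumin gene of hepatocytes, took 7.91 to 11.9% of the counts in HNKO CS and 7.23 to 12.5% in HNKO L.

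Nampt itself had a lowest, median and highest value of 27.8, 39.4 and 59.1 CPM in HNKO CS, against 31.3, 40.8 and 52.1 CPM in HNKO L. The groups overlapped, and the log2 difference of 0.04 ± 0.20 (SE) did not pass the test (edgeR adjusted p = 0.951). The mean was 42 ± 13.3 CPM in HNKO CS and 40.9 ± 7.88 CPM in HNKO L (SD, n = 6 each), beside 99 ± 36.7 CPM in WT CS (SD, n = 6) and 81.5 ± 25.1 CPM in WT L (SD, n = 5). In bulk RNA, fewer cells of a type and less RNA per cell cannot be told apart, which holds for every marker below.

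Across 14932 genes, 802 were called between HNKO CS and HNKO L (5.37%), of which 289 rose (1.94%) and 513 fell (3.44%). Of the called genes, 144 rose and 390 fell by at least 2-fold. The direction was the same in all 6 mice for 258 of the genes that rose and 453 of those that fell. CS and L did not overlap for 132 of the genes that rose and 258 of those that fell, and among all genes tested 1.07% were higher and 2.01% lower without overlap. With mouse as a block 1233 genes were called (8.26%), 488 higher (3.27%) and 745 lower (4.99%), and 776 of the 802 were among them. Without mouse 552, 177 genes rose and 552 fell, without mouse 540 the total was 526 with 310 lower, and without mouse 562 it was 547 with 187 higher. With library totals in place of TMM, the median of all genes was -0.17 on the log2 scale, against 0.02 with TMM, and the split was 158 higher and 1359 lower.

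Immediate early genes led the genes that rose. Of 26 tested members 19 rose and none fell (73.1%, beside 1.94% of all genes), with a median log2 fold change of 2.39 beside 0.02 for all genes. The summed level of the list was 3102, 4586 and 6193 CPM in HNKO CS (lowest, median and highest), against 363, 458 and 583 CPM in HNKO L. CS was above L in all 6 mice with no overlap, and mouse 552 had the lowest sum in CS.

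Fosb, a partner of Jun in the AP-1 transcription factor, had 33.1, 124 and 230.5 CPM in HNKO CS, against 0.063, 0.15 and 0.363 CPM in HNKO L. It was close to undetected in every liver piece and present in every suspension, a log2 fold change of 9.41 ± 0.52 (edgeR adjusted p = 1.84e-14). Fos, the founding member of the family, had 218, 382 and 551 CPM in HNKO CS, against 1.13, 2.17 and 4.24 CPM in HNKO L. The lowest suspension was far above the highest liver, and the log2 fold change was 7.19 ± 0.48 (edgeR adjusted p = 1.16e-12).

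The 200 bases upstream of the RefSeq transcription start are shown for Fosb and Fos, which rose most, and for Btg2 and Zfp36, members described below whose upstream sequence held a searched motif. The sequences run 5′ to 3′ on the strand of the gene and come from RefSeq on GRCm38.p6. They lie at chr7:19310046-19310245 (minus strand) for Fosb, chr12:85473690-85473889 (plus strand) for Fos, chr1:134079156-134079355 (minus strand) for Btg2 and chr7:28379229-28379428 (minus strand) for Zfp36. Capitals mark the motif, a cyclic AMP response element in Btg2 and a CArG box, the core that serum response factor binds, in Zfp36.
Fosb promoter: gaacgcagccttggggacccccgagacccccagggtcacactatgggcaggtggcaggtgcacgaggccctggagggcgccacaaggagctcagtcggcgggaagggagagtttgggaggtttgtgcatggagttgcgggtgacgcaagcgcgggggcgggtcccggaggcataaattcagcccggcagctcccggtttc
Fos promoter: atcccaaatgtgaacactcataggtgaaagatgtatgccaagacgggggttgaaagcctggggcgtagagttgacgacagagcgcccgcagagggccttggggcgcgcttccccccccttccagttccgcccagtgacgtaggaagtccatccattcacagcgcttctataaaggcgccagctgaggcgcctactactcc
Btg2 promoter: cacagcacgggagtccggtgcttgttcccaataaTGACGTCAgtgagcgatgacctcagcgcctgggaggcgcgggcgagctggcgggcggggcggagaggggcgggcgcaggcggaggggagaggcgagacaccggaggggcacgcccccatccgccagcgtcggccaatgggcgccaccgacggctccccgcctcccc
Zfp36 promoter: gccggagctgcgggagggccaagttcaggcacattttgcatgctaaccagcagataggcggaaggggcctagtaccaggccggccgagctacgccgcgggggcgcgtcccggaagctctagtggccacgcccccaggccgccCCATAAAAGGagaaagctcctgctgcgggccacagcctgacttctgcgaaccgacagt

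The motifs searched over 250 upstream bases were the cyclic AMP response element TGACGTCA, which reads the same on both strands, the AP-1 site TGACTCA with its complement TGAGTCA, and the CArG box on both strands. The first 2 share their opening letters, but neither holds the other. RefSeq upstream sequences were found for 22 of the 28 listed immediate early genes, with 31 start sites. The cyclic AMP response element stood at 3 of the 31 (9.68%, in Btg2, Dusp1 and Maff), beside 1.55% of 32851 start sites of all genes. A CArG box stood at 5 of the 31 (16.1%), beside 1.47%, but in only 2 of the 22 genes, Egr2 and Zfp36. Zfp36 has 1 start site, so the rest of the 5 were start sites of Egr2. The AP-1 site stood at 1 of the 31 (3.23%, in Csrnp1), beside 4.46%. In Btg2 the element began 166 bases upstream of the start, and in Zfp36 the box began 58 bases upstream. Only exact matches were sought, so variant sites, sites further upstream and listed genes without an upstream sequence are not covered. A gene without a match here is not shown to lack the element. Start sites of 1 gene can overlap, and these matches describe letters with no measurement of binding.

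**Figure D1:**
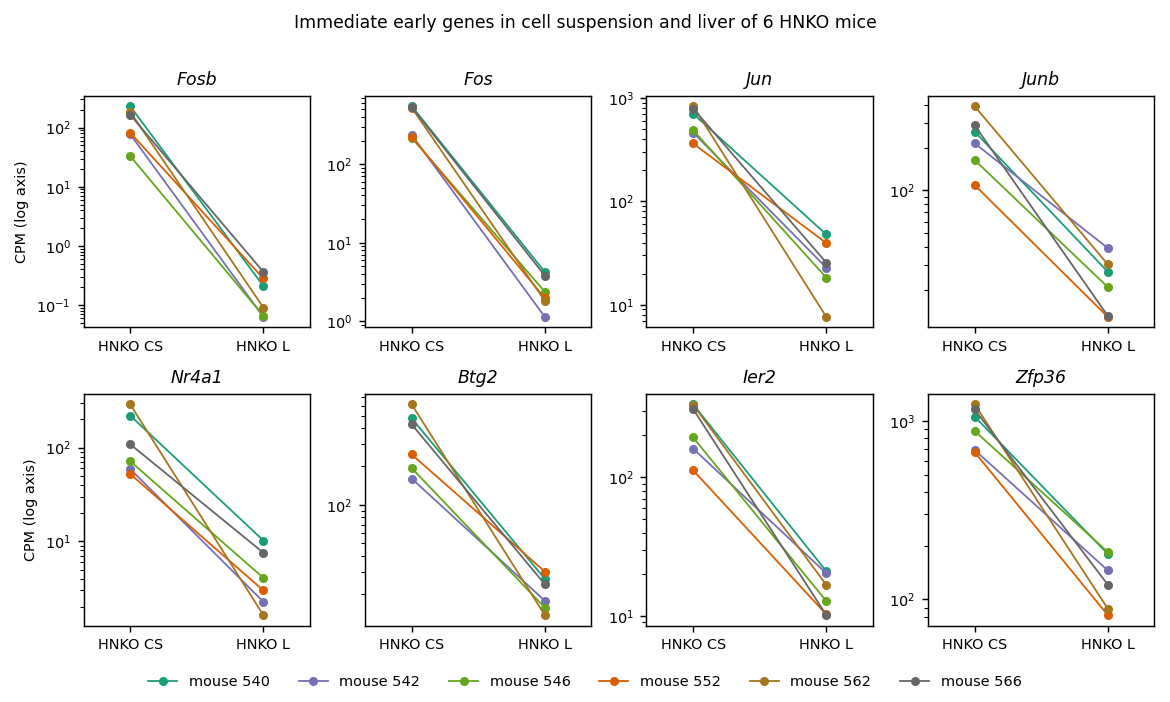
CPM on a log axis for immediate early genes, with HNKO CS on the left and HNKO L on the right of each panel and 1 line per mouse. Every line is higher in CS, as for Fos with 218 to 551 CPM in HNKO CS and 1.13 to 4.24 CPM in HNKO L.

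The Jun genes encode the other partner of AP-1. Jun had 364, 599 and 838 CPM in HNKO CS, against 7.62, 24.2 and 47.9 CPM in HNKO L, a log2 fold change of 4.5 ± 0.33 (edgeR adjusted p = 1.19e-11). Junb had 109, 237 and 391 CPM in HNKO CS, against 12.9, 23.9 and 39.4 CPM in HNKO L, with a log2 fold change of 3.31 ± 0.29 (edgeR adjusted p = 1.11e-09). For both genes the lowest suspension exceeded the highest liver. Within-mouse differences of Jun spanned 3.2 to 6.76 on the log2 scale, with mouse 552 the smallest and mouse 562, whose liver held the least Jun, the largest.

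Nr4a1, an orphan nuclear receptor, had 52.4, 90.1 and 289 CPM in HNKO CS, against 1.63, 3.54 and 10.2 CPM in HNKO L (log2 fold change 4.75 ± 0.43, edgeR adjusted p = 1.73e-09). Egr1, a zinc finger factor induced by growth signals, rose by 4.77 ± 0.45 on the log2 scale (edgeR adjusted p = 3.95e-09), and Atf3, a stress-induced factor of the CREB family, by 5.24 ± 0.48 (edgeR adjusted p = 2.03e-09). Ier2, a nuclear protein of the immediate early class, had 112, 251 and 335 CPM in HNKO CS, against 10.2, 14.8 and 21 CPM in HNKO L. In none of these genes did CS and L overlap.

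Several of the genes that rose restrain growth or signalling. Btg2, an anti-proliferative gene, had 161, 338 and 613 CPM in HNKO CS, against 13.7, 20.8 and 30.1 CPM in HNKO L, a log2 fold change of 4.06 ± 0.33 (edgeR adjusted p = 1.54e-10). Zfp36, which binds AU-rich mRNAs and promotes their decay, had 669, 969 and 1238 CPM in HNKO CS, against 81.7, 133 and 185 CPM in HNKO L, with a log2 fold change of 2.83 ± 0.22 (edgeR adjusted p = 6.18e-11). Socs3, the feedback inhibitor of interleukin-6 signalling, had 106, 129.5 and 315 CPM in HNKO CS, against 6.9, 12.2 and 19.3 CPM in HNKO L. In each of these genes every suspension lay above every liver.

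The Gadd45 genes, which respond to DNA damage and growth arrest, rose together. The log2 fold change was 3.34 ± 0.46 for Gadd45b (edgeR adjusted p = 5.06e-06), 2.96 ± 0.44 for Gadd45g (edgeR adjusted p = 1.77e-05) and 2.76 ± 0.27 for Gadd45a (edgeR adjusted p = 5.42e-09), each higher in 6 of 6 mice. Of 19 tested genes of the p53 response 3 rose (15.8%, beside 1.94% of all genes) and none fell. The 3 were Btg2, Gadd45a and the kinase Plk3. The list median was 0.09, and 4 rose under the block (beside 3.27% of all genes). The integrated stress response gave 2 higher of 18 (11.1%, beside 1.94% of all genes). They were Ppp1r15a at 2.37 ± 0.16, which directs dephosphorylation of eIF2-alpha, and Gdf15 at 3.33 ± 0.44, a stress-induced cytokine. To that response the block added 1 lower gene, Psat1 of serine synthesis (edgeR adjusted p = 0.0385, beside 0.128 without it). Atf4, the central factor of that response, had 83.3, 110.2 and 126 CPM in HNKO CS, against 72.9, 85 and 122 CPM in HNKO L, and was not called (edgeR adjusted p = 0.443).

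Of 22 tested NF-kB targets and cytokines 5 rose and none fell (22.7%, beside 1.94% of all genes that rose), with a median of 0.88. Cxcl1, a neutrophil chemokine, had 36.3, 50.9 and 143 CPM in HNKO CS, against 5.08, 5.85 and 15.4 CPM in HNKO L (log2 fold change 3.24 ± 0.54, edgeR adjusted p = 9.92e-05). The other 4 were Socs3, the chemokines Cxcl2 and Cxcl10, and Nfkbiz, a nuclear regulator of NF-kB target genes. Cxcl2 was at 0.645 to 6.45 CPM in HNKO CS, against 0 to 0.281 CPM in HNKO L, so its fold rests on few counts, and Cxcl10 was no longer called with mouse as a block (edgeR adjusted p = 0.0793, beside 0.0476 without it). Without mouse 566 the list gave 3 higher genes.

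Metallothioneins, which bind zinc and copper, rose as well. Mt1 had 93.7, 258 and 333 CPM in HNKO CS, against 32.8, 50.8 and 103 CPM in HNKO L, a log2 fold change of 2.1 ± 0.27 (edgeR adjusted p = 1.94e-06). Mt2 rose by 2.39 ± 0.38 on the log2 scale (edgeR adjusted p = 4.86e-05), and both were higher in CS in 6 of 6 mice although the groups overlapped. Of 16 tested heat shock chaperones 1 rose (6.25%, beside 1.94% of all genes), the co-chaperone Dnajb1 at 0.79 ± 0.17. Of 14 Nrf2 targets, which detoxify oxidants, and 14 hypoxia-inducible genes none was called with or without the block over the 35 libraries, with list medians of -0.06 and 0.05, and 1 Nrf2 target rose in the blocked fit of the 12 HNKO libraries alone. At an unadjusted p under 0.05 the counts over all genes were 2600 in edgeR and 2674 in DESeq2, so a gene left uncalled here is not shown to be level.

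Among 47 tested genes of the cytoskeleton and junctions, 3 rose (6.38%, beside 1.94% of all genes). They were the cytoplasmic actins Actg1 and Actb and Ccn1, a matricellular protein induced by mechanical strain. Actg1 had 80.2, 154 and 219 CPM in HNKO CS, against 37.8, 53 and 58.4 CPM in HNKO L, with no overlap (log2 fold change 1.6 ± 0.18, edgeR adjusted p = 1.48e-07). Ccn1 rose by 2.96 ± 0.35 on the log2 scale (edgeR adjusted p = 2.98e-07). The 3 that fell (6.38%, beside 3.44% of all genes) were S100a6, Tmsb10 and Tubb2b. With mouse as a block 4 rose and 10 fell (beside 3.27% and 4.99% of all genes). Without mouse 552, where lower calls over all genes also increased, 3 rose and 8 fell. Of 19 clock genes 1 rose without the block (5.26%, beside 1.94% of all genes) and 2 with it (beside 3.27%). The first was Bhlhe40, a transcriptional repressor that also responds to stress, at 1.08 ± 0.20 (edgeR adjusted p = 5.66e-04). The other was Nfil3, a repressor of the same network (edgeR adjusted p = 0.0303 with the block and 0.229 without it).

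**Figure D2:**
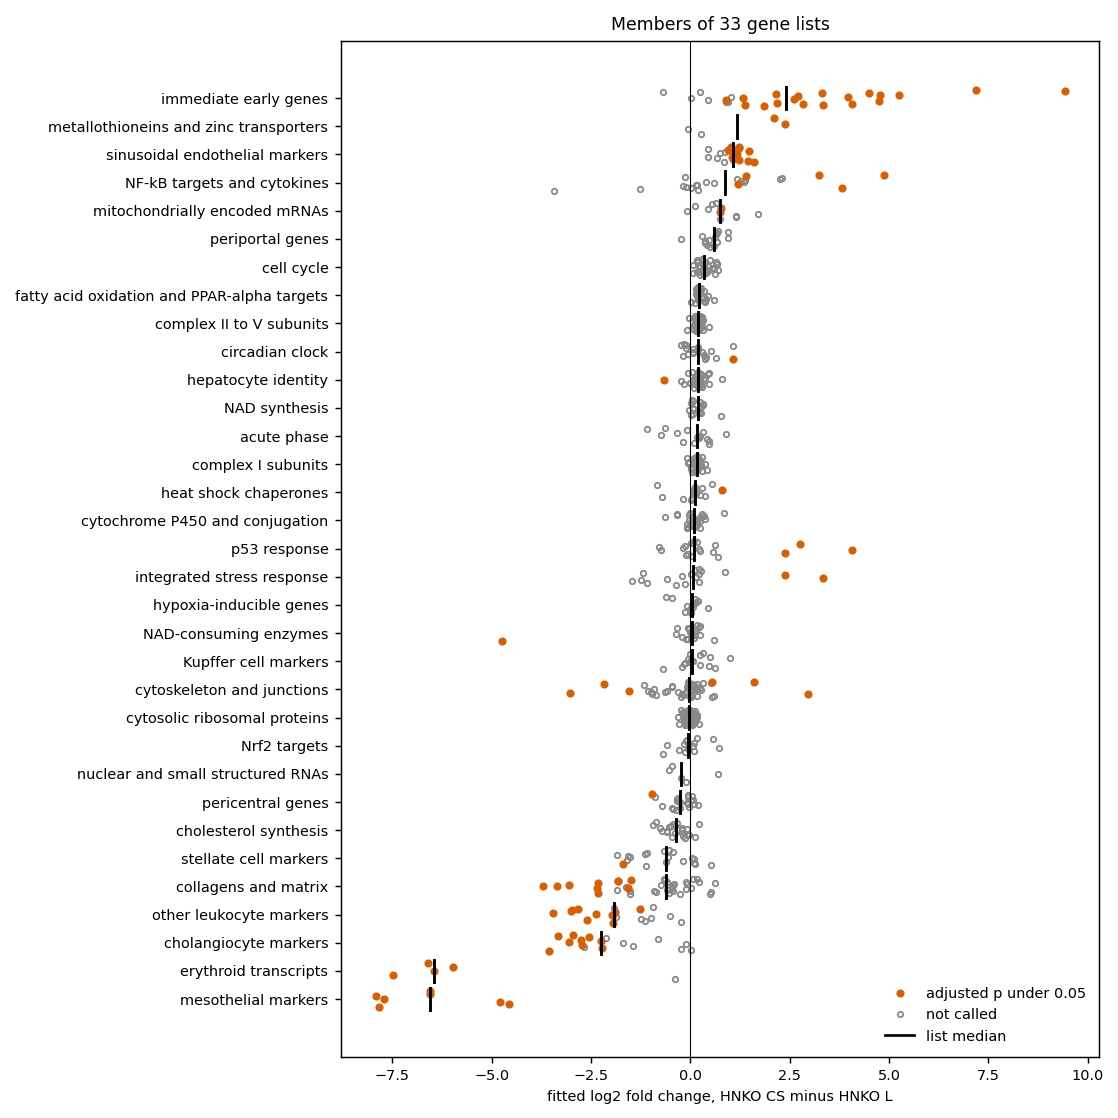
Fitted log2 fold change, HNKO CS minus HNKO L, of the tested members of the gene lists, with called genes filled, others open and the list median as a bar. Immediate early genes lie furthest to the right with a median of 2.39, and erythroid transcripts and mesothelial markers furthest to the left with medians of -6.46 and -6.56.

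The lists that fell furthest were markers of cells other than hepatocytes. A gene could pass the filter on low counts through L alone. Where members had few counts in CS, the direction and the share that fell were therefore partly set by that filter. Mesothelial markers, which label the serosal covering of the liver, fell in 7 of 7 tested genes (beside 3.44% of all genes). Msln, mesothelin, had 0, 0 and 0.147 CPM in HNKO CS, against 1.32, 6.11 and 7.17 CPM in HNKO L, a log2 fold change of -6.56 ± 0.64 (edgeR adjusted p = 6.16e-09). Upk1b, Muc16 and Wt1 had no counts in any HNKO suspension, and with a floor of 3 counts over the group they were at least 52.1-fold, 48.4-fold and 47.5-fold lower in CS. The list median was -6.56 as fitted and -5.6 with those 3 genes at their bounds.

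Red cell transcripts fell in 4 of 5 tested genes, of 9 listed (beside 3.44% of all genes), with a median of -6.46. The 4 were globin genes. The other, Alas2, was not called, with 7.18 to 13.5 CPM in HNKO CS against 7.07 to 20.8 CPM in HNKO L. It made up most of the list's sum in CS, which was 8.01 to 13.8 CPM. Hba-a1, an alpha-globin gene, had 0, 0.163 and 0.246 CPM in HNKO CS, against 4.91, 9.93 and 39.8 CPM in HNKO L (log2 fold change -6.6 ± 0.63, edgeR adjusted p = 3.95e-09). Hbb-bs, a beta-globin gene, had 0.0763, 0.367 and 3.22 CPM in HNKO CS, against 25.8, 51.1 and 215 CPM in HNKO L (log2 fold change -6.46 ± 0.62, edgeR adjusted p = 4.75e-09). The suspension of mouse 552 held the most Hbb-bs of the suspensions and the liver of mouse 566 the most of the livers, and the groups did not overlap. Globin genes share near-identical stretches, so the division of counts among them is uncertain.

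Cholangiocyte markers, of the bile duct lining, fell in 9 of 17 tested genes and rose in none (52.9%, beside 3.44% of all genes that fell), with a median of -2.25. Krt19, a duct keratin, had 0.18, 0.612 and 0.901 CPM in HNKO CS, against 0.921, 3.81 and 7.12 CPM in HNKO L (log2 fold change -2.95 ± 0.51, edgeR adjusted p = 1.57e-04). Epcam, a duct surface protein, had 0.24, 0.725 and 1.07 CPM in HNKO CS, against 2.43, 2.83 and 8.74 CPM in HNKO L (log2 fold change -2.55 ± 0.54, edgeR adjusted p = 0.00194). For both every suspension lay below every liver, although the highest Krt19 suspension and the lowest Krt19 liver were close. Cd24a, a surface protein of duct and progenitor cells, had a log2 fold change of -2.25 ± 0.44, and Bicc1, an RNA-binding protein of tubular epithelia, one of -2.23 ± 0.37. With mouse as a block 14 of the 17 fell (beside 4.99% of all genes), and without mouse 540, whose within-mouse median of -3.89 was the steepest, 6 did.

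Markers of leukocytes other than Kupffer cells fell in 10 of 19 tested genes (52.6%, beside 3.44% of all genes), with a median of -1.92. With mouse as a block 13 fell (beside 4.99%). No value was positive, but only 19 of 25 listed genes passed the filter on low counts. Since a gene could pass through L alone, the lack of a positive value is partly set by the filter. The T cell receptor component Cd3g had a log2 fold change of -2.83 ± 0.47, and the B cell receptor component Cd79a had one of -3.01 ± 0.56 (edgeR adjusted p = 1.56e-04 and 4.53e-04 in that order). Cd3g, for one, was at 0 to 0.293 CPM in HNKO CS, against 0.726 to 1.94 CPM in HNKO L. Ccr2, the receptor that draws monocytes into tissue, had 0.737, 1.36 and 3.52 CPM in HNKO CS, against 2.17, 6.87 and 32.4 CPM in HNKO L, where the top liver was that of mouse 552 (log2 fold change -2.6 ± 0.55, edgeR adjusted p = 0.00213). Ptprc, the pan-leukocyte gene for CD45, had 6.37, 8.31 and 28.7 CPM in HNKO CS, against 16.8, 19.5 and 37.9 CPM in HNKO L, and was called only with the block (edgeR adjusted p = 0.208 without it and 0.0171 with it). Without mouse 566 the list gave 5 lower genes, and in the 12 HNKO libraries alone 4 of the 10 that passed the filter.

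Of 38 tested collagens and matrix genes 10 fell and none rose (26.3%, beside 3.44% of all genes that fell), with a median of -0.60, and 15 fell with mouse as a block (beside 4.99%). Without mouse 552 the median was -0.91. Of the members 7 were positive. The summed level was 3037, 4190 and 4805 CPM in HNKO CS, against 3513, 3973 and 4410 CPM in HNKO L. That sum was higher in CS in 3 of 6 mice, so the summed RNA of the list did not fall as a whole. Eln, elastin, had 0.484, 1.16 and 2.86 CPM in HNKO CS, against 3.22, 9.84 and 21.6 CPM in HNKO L, with no overlap (log2 fold change -3.05 ± 0.42, edgeR adjusted p = 5.94e-06). Mmp2, a gelatinase of fibroblasts, had a log2 fold change of -2.34 ± 0.50. The list gave 6 lower genes without mouse 540 and 6 without mouse 566.

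Connective tissue genes outside that list were among the 15 largest falls. Dpt, dermatopontin, had 0.242, 0.516 and 1.39 CPM in HNKO CS, against 3.69, 12.1 and 27.6 CPM in HNKO L (log2 fold change -4.41 ± 0.46, edgeR adjusted p = 3.17e-08). Igfbp5, a binding protein of insulin-like growth factors, had a log2 fold change of -2.88 ± 0.36, Aebp1, a protein of collagen fibres, -2.77 ± 0.47, and Gsn, the actin-severing protein gelsolin, -2.47 ± 0.38. Smaller falls were those of Adamtsl2, a microfibril protein, at -2.39 ± 0.49, Smoc2, a calcium-binding matrix protein, at -1.84 ± 0.31, Tnxb, a tenascin, at -1.86 ± 0.47, and Sparcl1, a matrix protein of vessels, at -1.89 ± 0.53. Sparcl1 had an edgeR adjusted p of 0.027, and of 0.116, 0.0673 and 0.0886 without mice 540, 562 and 566 in turn. Tnxb had an edgeR adjusted p of 0.011, and of 0.0677 and 0.0554 without mice 540 and 566.

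Stellate cells, the vitamin A-storing cells of the sinusoid, gave 1 lower gene of 19 without a block (5.26%, beside 3.44% of all genes). It was Lum, a small matrix proteoglycan, at -1.69 ± 0.46 (edgeR adjusted p = 0.0239), and the list median was -0.60. That call was lost without mouse 540, 562 or 566 and in the 12 HNKO libraries alone without a block, where 0 genes fell. With mouse as a block 8 fell (beside 4.99% of all genes). Col1a1, the main fibrillar collagen gene, had 2.18, 10.1 and 32.2 CPM in HNKO CS, against 9.61, 37.1 and 122 CPM in HNKO L, with a lower value in CS in 6 of 6 mice (edgeR adjusted p = 0.0937 without the block and 0.00252 with it). Lrat, the enzyme that esterifies retinol in these cells, had 10.1, 16.1 and 48.9 CPM in HNKO CS, against 25, 31.5 and 39 CPM in HNKO L, and was not called either way. Mouse 552 had about as much summed stellate marker RNA in CS as in L, 1432 and 1463 CPM, and without it 3 genes of the list fell and the median was -0.96.

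Sinusoidal endothelial markers were higher in CS. Of 20 tested genes 14 rose and none fell (70%, beside 1.94% of all genes), all 20 were positive, and the median was 1.07, with 16 higher under the block (beside 3.27%). The summed level was 1155, 1335 and 2706 CPM in HNKO CS (lowest, median and highest), against 653, 757 and 908 CPM in HNKO L, higher in CS in 6 of 6 mice with no overlap. Mice 552 and 542 held the most in CS, 2706 and 2206 CPM, and the other 4 lay between 1155 and 1345 CPM. Without mouse 552 the count was 10 and the median 0.83, and without mouse 542 they were 12 and 0.95.

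Clec4g, a lectin of the sinusoidal endothelium, had 75.4, 97.7 and 196 CPM in HNKO CS, against 44.3, 51.5 and 58.2 CPM in HNKO L, a log2 fold change of 1.22 ± 0.19 (edgeR adjusted p = 5.52e-05). Stab2, the scavenger receptor for hyaluronan, had 97.6, 136 and 247 CPM in HNKO CS, against 62.3, 78.8 and 90.4 CPM in HNKO L (log2 fold change 1.01 ± 0.23, edgeR adjusted p = 0.00518). Both were higher in every suspension than in any liver. The secreted nuclease Dnase1l3 had a log2 fold change of 1.46 ± 0.21, Kdr, the main receptor for vascular endothelial growth factor, 1.46 ± 0.23, Bmp2, a signal for hepcidin expression, 1.6 ± 0.32, and Tek, the angiopoietin receptor, 1.14 ± 0.23.

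Kupffer cells, the resident macrophages, gave no call among 16 tested markers and a median of 0.03. Clec4f, a lectin of mouse Kupffer cells, had 96.5, 113 and 366 CPM in HNKO CS, against 91.2, 110.4 and 162 CPM in HNKO L. Vsig4, a complement receptor, had 24.3, 32.3 and 121 CPM in HNKO CS, against 35.3, 46.6 and 52.5 CPM in HNKO L. The groups overlapped for both. The summed level of the list was 544 to 783 CPM in the suspensions of 5 mice and 2291 CPM in that of mouse 552, against 793 to 1034 CPM in the 6 livers, and in those 5 mice CS was below L. Without mouse 552 the median was -0.43, and with library totals in place of TMM it was -0.12, with no gene called in either. Under the block the median was -0.13 and 1 gene fell (beside 4.99% of all genes), Lyz2, a lysozyme of myeloid cells (edgeR adjusted p = 0.0498, beside 0.395 without it).

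**Figure D3:**
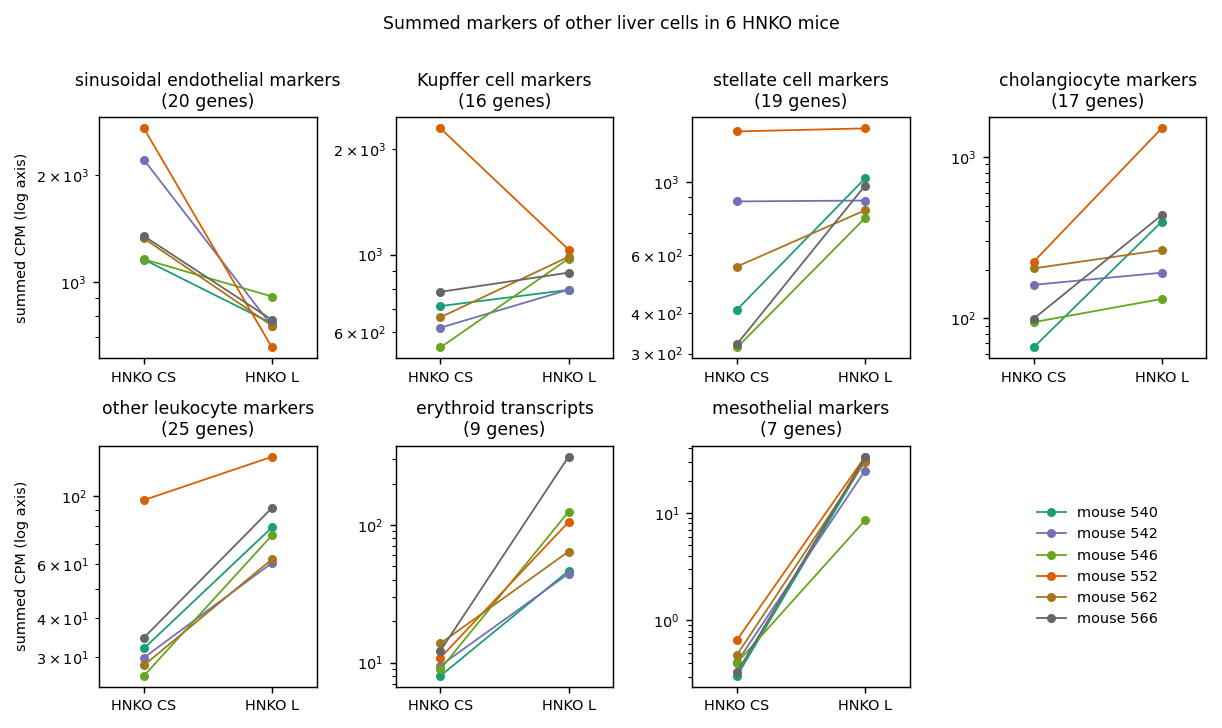
Summed CPM, on a log axis, of the markers of other cell types, with HNKO CS on the left and HNKO L on the right and 1 line per mouse. Endothelial sums are higher in CS in all 6 mice (1155 to 2706 CPM in CS and 653 to 909 CPM in L), Kupffer sums in mouse 552 alone, and cholangiocyte, leukocyte, erythroid and mesothelial sums are lower in CS in all 6.

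Genes of the hepatocyte itself moved little. Of 36 tested hepatocyte identity genes none rose and 1 fell (2.78%, beside 3.44% of all genes), with a median of 0.18. That gene was Foxa1, a pioneer factor at liver genes, with 6.23, 9.34 and 10.4 CPM in HNKO CS, against 11.2, 14.2 and 16.8 CPM in HNKO L and no overlap (log2 fold change -0.65 ± 0.12, edgeR adjusted p = 2.62e-04). Foxa1 was not called with all 36 libraries, and with the block Apoa2, an apolipoprotein of HDL, rose as well (edgeR adjusted p = 0.0365, beside 0.139 without it). Alb had 85390, 127840 and 146370 CPM in HNKO CS, against 68776, 112280 and 142990 CPM in HNKO L, and was not called (log2 difference 0.19 ± 0.18, edgeR adjusted p = 0.663). Of the members 31 were positive, but with library totals in place of TMM the list median was -0.00016, so its sign rests on the scaling.

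Zonation genes, which hepatocytes express along the axis between portal and central vein, were not called in the periportal list without a block. Of its 15 tested genes 14 were positive, with a median of 0.59, and with mouse as a block 8 rose (beside 3.27% of all genes). The summed level was higher in CS in 6 of 6 mice, at 7230, 10830 and 12690 CPM in HNKO CS against 3763, 7377 and 9220 CPM in HNKO L, with overlap between the groups. Gls2, liver glutaminase, had 348, 487 and 618 CPM in HNKO CS, against 134, 324 and 476 CPM in HNKO L, higher in CS in 6 of 6 mice (log2 difference 0.65 ± 0.22, edgeR adjusted p = 0.0855 without the block and 0.00294 with it). Asl, a urea cycle enzyme, and Sds, serine dehydratase, were likewise called only with the block (edgeR adjusted p = 0.00692 and 0.0114, beside 0.121 and 0.262 without it). The within-mouse median of the list was 1.32 on the log2 scale in mouse 552 and 0.31 to 0.78 in the others. Without mouse 552 the fitted list median was 0.48.

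Of 21 pericentral genes 1 fell (4.76%, beside 3.44% of all genes) and 5 were positive, with a median of -0.25, or -0.12 without mouse 542. Glul, glutamine synthetase, which marks the hepatocytes next to the central vein, had 689, 948 and 1001 CPM in HNKO CS, against 925, 1832 and 2325 CPM in HNKO L (log2 fold change -0.95 ± 0.20, edgeR adjusted p = 0.00211). In 5 of 6 mice it was lower in CS, and in mouse 552 it was 944 CPM in CS and 925 CPM in L. Slc1a2, a glutamate transporter of the same cells, was called with mouse as a block alone (log2 difference -0.89 ± 0.28, edgeR adjusted p = 0.0572 without the block and 0.0234 with it). The part of the lobe in these values cannot be told apart from that of dissociation.

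**Figure D4:**
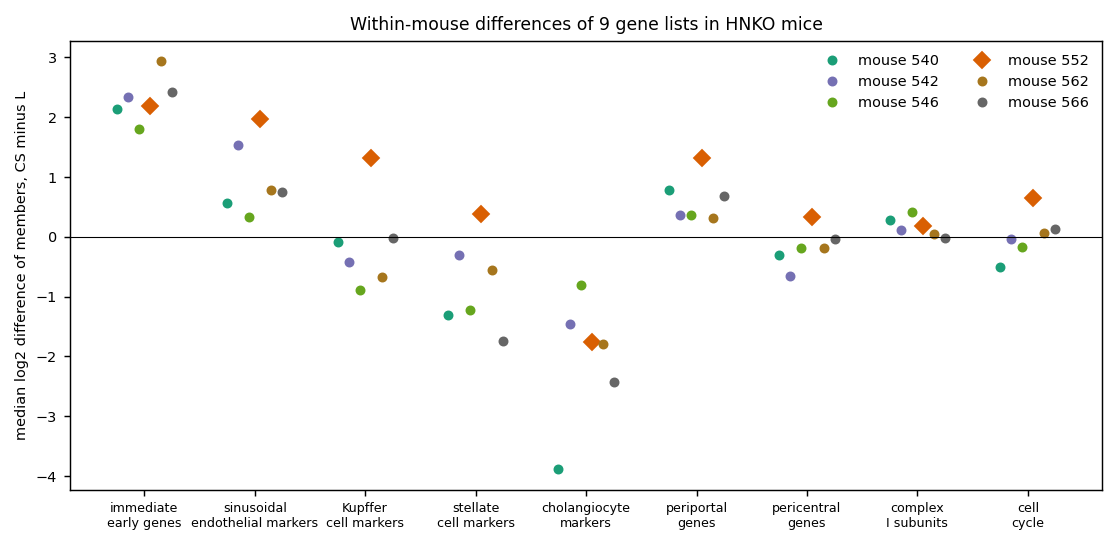
Median log2 difference of the members of gene lists, CS minus L, in each of the 6 HNKO mice, with mouse 552 marked apart. Immediate early genes, endothelial markers and periportal genes are above 0 in every mouse, cholangiocyte markers are below 0 in every mouse, and mouse 552 is the highest for Kupffer and stellate markers.

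The 13 mitochondrially encoded mRNAs, which encode respiratory chain subunits, took 4.7, 6.86 and 12.6% of counts in HNKO CS (lowest, median and highest), against 4.4, 5.1 and 5.96% in HNKO L. The mean difference was 2.19 percentage points, 5 of 6 mice were higher in CS, and mouse 552 gave the top value in both groups. An exact two-sided permutation test that flipped the signs of the 6 within-mouse differences gave p = 0.09375, where 0.03125 is the smallest it can give. Without mouse 552 the difference was 1.3 points (exact p = 0.1875). Of 11 tested mRNAs 2 rose (18.2%, beside 1.94% of all genes), mt-Co1 at 0.74 ± 0.20 and mt-Nd4 at 0.77 ± 0.21 on the log2 scale (edgeR adjusted p = 0.0197 and 0.0257). None was called without mouse 552, 562 or 566. Under the block 3 rose (beside 3.27% of all genes), the added one being mt-Co2. The genes mt-Co2, mt-Co3 and mt-Atp6 were counted at under 3 CPM in every HNKO library, and since near-identical nuclear copies exist their values are uncertain.

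Nuclear subunits of the respiratory chain were not called without the block over the 35 libraries, and without mouse 552 complex I and complexes II to V gave 1 higher gene each. Complex I, the NADH dehydrogenase, had 34 of 37 positive values with a median of 0.16, and complexes II to V had 38 of 40 with a median of 0.20, beside 0.02 for all genes. With mouse as a block 1 and 4 of them rose (beside 3.27% of all genes), among them Ndufs7, a core subunit of complex I (edgeR adjusted p = 0.0279), and Cyc1, cytochrome c1 (edgeR adjusted p = 0.0205). With library totals in place of TMM the complex I median was -0.02 and that of complexes II to V 0.02.

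The 17 tested genes of NAD synthesis gave no call without the block and 2 higher genes with it (beside 3.27% of all genes), Nadsyn1, NAD synthetase, and Nnmt, which methylates nicotinamide (edgeR adjusted p = 0.0356 and 0.0228 with the block, 0.104 and 0.151 without it). Of 21 tested NAD-consuming enzymes 1 fell (4.76%, beside 3.44% of all genes). It was Bst1, an ectoenzyme that cleaves NAD, with 0 to 0.0819 CPM in HNKO CS against 0.329 to 1.69 CPM in HNKO L (edgeR adjusted p = 2.73e-04).

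Metabolic programs of the hepatocyte were not called without the block. The 24 genes of cholesterol synthesis gave 22 negative values and a median of -0.36, and 7 fell with mouse as a block (beside 4.99% of all genes), among them Hmgcs1, HMG-CoA synthase, and Idi1, isopentenyl diphosphate isomerase (edgeR adjusted p = 0.0177 and 0.00256 with the block, 0.118 and 0.134 without it). All 24 genes of fatty acid oxidation and PPAR-alpha targets were positive with a median of 0.21, and none was called with or without the block over the 35 libraries. In the blocked fit of the 12 HNKO libraries alone 5 of them rose, and the counts of other lists in that fit are given at the end. Of 15 acute phase genes none was called without the block and 1 rose with it (beside 3.27% of all genes). Their median was 0.18, and it was 0.36 without mouse 552 and 0.08 without mouse 540. Saa2, serum amyloid A2, had 32.2 to 74 CPM in HNKO CS against 6.05 to 500.5 CPM in HNKO L, the top liver being that of mouse 552. Of 30 cytochromes P450 and conjugating enzymes none was called without the block, and Cyp3a11, an inducible P450, was lower in CS in 6 of 6 mice (log2 difference -0.63 ± 0.26, edgeR adjusted p = 0.18 without the block and 0.034 with it).

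Of 77 cytosolic ribosomal protein genes, 30 cell cycle genes and 5 nuclear and small structured RNAs none was called with or without the block over the 35 libraries, with medians of -0.02, 0.34 and -0.23. The cell cycle median was -0.12 without mouse 552 and 0.09 with the block. The within-mouse median of cell cycle genes was below 0 in mice 540, 542 and 546 and 0.64 in mouse 552. With library totals in place of TMM 16 of the 77 ribosomal protein genes fell. Their median was then -0.21, beside -0.17 for all genes, and lower calls over all genes also increased, as given above.

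The same step in WT mice gave 522 called genes (3.5%), 154 higher (1.03%) and 368 lower (2.46%). With mouse as a block the share called in WT was 4.71%, 1.32% higher and 3.4% lower. Called in the same direction in both genotypes were 348 genes, which is 43.4% of the HNKO calls and 66.7% of the WT calls, and 0 were called in opposite directions. The sign in WT matched for 780 of the 802 HNKO calls. The direct test of the step in HNKO minus the step in WT called 0 genes in edgeR (0%), with a lowest adjusted p of 0.977, and 0 in DESeq2. At an unadjusted p under 0.05 it gave 673 genes in edgeR (4.51%), 415 positive (2.78%) and 258 negative (1.73%), and 720 in DESeq2. No single gene was thus shown to respond differently, although the error of the difference was wide, as for Fos at -0.03 ± 0.56 on the log2 scale.

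Immediate early genes rose in 18 of 26 in WT with a median of 1.93, and Fosb and Fos had WT log2 fold changes of 9.44 and 7.21. Jun had a difference of -1.11 ± 0.42 on the log2 scale, HNKO minus WT (unadjusted p = 0.0131 and adjusted p = 0.977 in edgeR). Endothelial markers gave 1 higher gene in WT, Kdr, with a median of 0.40, and the difference HNKO minus WT was positive for all 20 with a median of 0.67. At an unadjusted p under 0.05 it was positive in 5 of the 20 (beside 2.78% of all genes), among them Clec4g at 0.91 ± 0.28 (unadjusted p = 0.00233 and adjusted p = 0.977 in edgeR). Without mouse 552 the median difference was 0.40.

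Respiratory chain subunits had medians of opposite sign in the 2 genotypes, 0.16 in HNKO and -0.10 in WT for complex I and 0.20 in HNKO and -0.12 in WT for complexes II to V. With library totals in place of TMM the HNKO medians were -0.02 and 0.02. The sign in HNKO, and so the opposite sign for complex I, therefore rests on the scaling. The difference HNKO minus WT was positive for 35 of 37 and 37 of 40 genes, with medians of 0.25 and 0.31 beside 0.04 for all genes. With all 36 libraries these median differences were 0.62 and 0.43. With library totals they were 0.19 and 0.25, beside -0.04 for all genes. At an unadjusted p under 0.05 it was positive in 14 and 13 of them (beside 2.78% of all genes), and none was called. The shift was not particular to the respiratory chain. Among 77 cytosolic ribosomal protein genes the difference was positive for 68, with a median of 0.16, or 0.81 with all 36 libraries. At an unadjusted p under 0.05 it was positive in 13 of the 77, and none was called. Their medians were -0.02 in HNKO and -0.22 in WT. Uqcr10, a complex III subunit, was among the 5 genes with the smallest p for a positive difference, 0.75 on the log2 scale (unadjusted p = 0.00133 and adjusted p = 0.977 in edgeR). The other 4 were Gpaa1, Zfp64, Nudt16l1 and Gemin7, with differences of 0.46 to 0.50, and the 5 with the smallest p for a negative one were Zfp141, Cstf2, Zfp131, Aqr and Zfp65, with differences of -0.75 to -0.42.

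**Figure D5:**
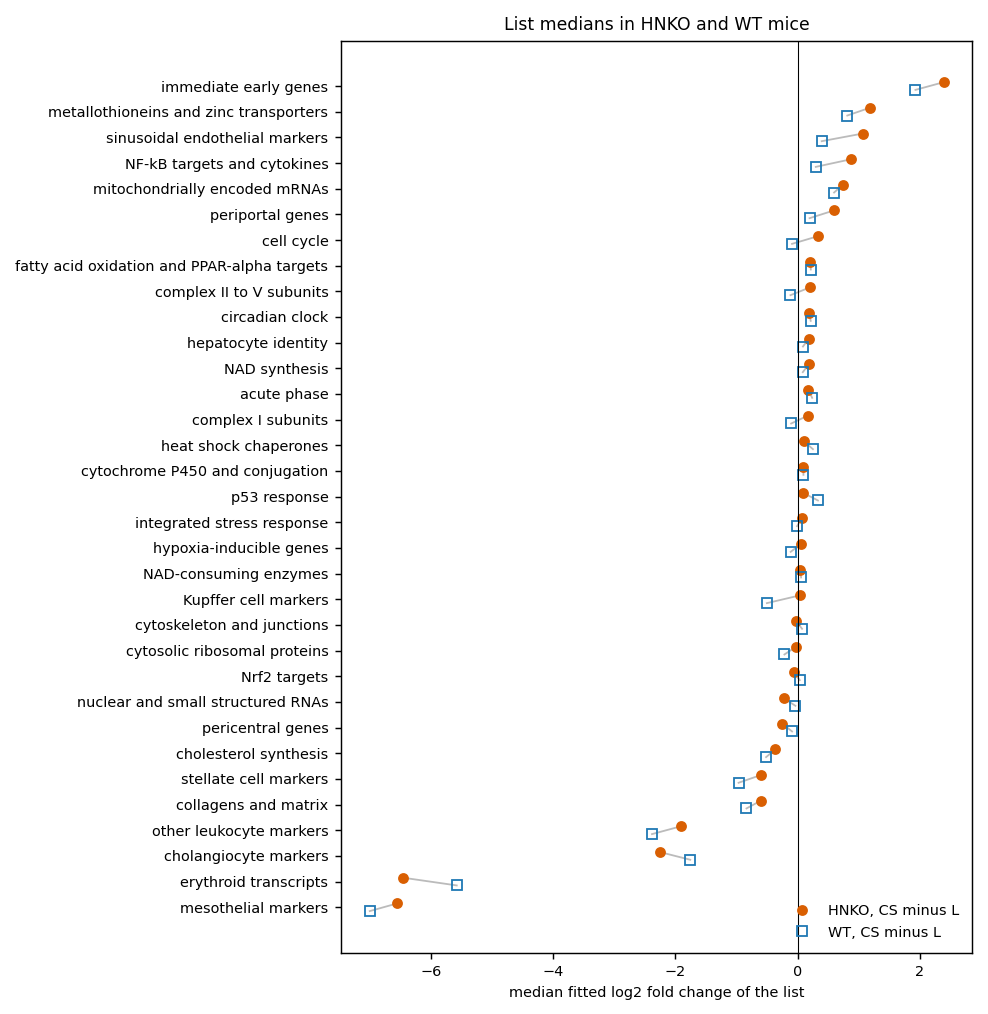
Median fitted log2 fold change, CS minus L, of the gene lists in HNKO mice and WT mice. Immediate early genes are at 2.39 in HNKO and 1.93 in WT, endothelial markers at 1.07 in HNKO and 0.40 in WT, and mesothelial markers at -6.56 in HNKO and -7.01 in WT.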

How the data were processed

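The authors deposited raw featureCounts counts per gene (version 1.6.4, after STAR, version 2.7.2b per the labels, on GRCm38) for stranded total RNA libraries depleted of ribosomal RNA. The strand option used in counting is not given in the sources used here, so an antisense gene cannot be separated from its partner. Counts of near-identical genes are uncertain. Symbols came from GENCODE M21 and matched 54165 of 54232 identifiers.

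Of 36 libraries 35 were used. The WT L library of mouse 558 was left out, which had 2547422 counts and the lowest mean Spearman correlation with its sample type (0.797). The study states that 1 low-quality library was excluded, without naming it. Genes were kept by filterByExpr with a minimum count of 10, which left 14932, and those not tested held 0.0856% of counts. Counts were scaled by TMM, and edgeR 4.0.16 (R 4.3.3) gave quasi-likelihood tests with 1 coefficient per group over all 6 groups, as in the study, at an adjusted p under 0.05. The test was checked on simulated data. DESeq2 1.42.0, other scalings and filters, the mouse block, the 12 HNKO libraries alone and the removal of each mouse were alternatives.

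After removal of group means, CS and L of the same HNKO mouse correlated at 0.127 to 0.507 across genes, in each mouse above its own highest correlation with another mouse, and the labels give both libraries the same mouse number. No 2 replicates agreed within sampling noise. Genes were named by rule. From the called protein-coding genes at 10 CPM or more with 1 direction in all 6 mice, the 15 largest rises and 15 largest falls were taken, with up to 8 members of each of 33 lists by smallest p, 5 genes each way for the genotype difference, defining markers and Nampt. The comparison, lists and rule were chosen with earlier results of these data known.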

Additional observations from a re-analysis of the deposited data

Results flagged for a closer look

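In groups of 6 libraries, 14 of 130 sets of values had 1 library far from the rest by Dixon's test at its 95% level (10.8%). That level assumes normal values, whereas these were not on a log scale and the sets overlap, so no comparison with chance is drawn. Of the 14, 10 were libraries of mouse 552. In CS of HNKO mice, mouse 552 was highest for the summed Kupffer markers (2291 CPM, next 783.1 CPM), the summed other leukocyte markers (96.93 CPM, next 34.64 CPM), Hbb-bs (3.224 CPM, next 0.9008 CPM), Dpt (1.392 CPM, next 0.6592 CPM) and the mitochondrial mRNA share (12.58%, next 7.264%), and lowest for the summed hypoxia-inducible genes (1330 CPM, next 1718 CPM). In L of HNKO mice it was highest for the summed cholangiocyte markers (1506 CPM, next 436.2 CPM), the summed stellate markers (1463 CPM, next 1029 CPM), Ccr2 (32.39 CPM, next 10.05 CPM) and Smoc2 (33.89 CPM, next 19.97 CPM). In L, mouse 566 was highest for the summed erythroid transcripts (313.1 CPM, next 124.7 CPM), Hba-a1 (39.82 CPM, next 13.43 CPM) and Hbb-bs (215.2 CPM, next 81.41 CPM), and mouse 546 was lowest for the summed mesothelial markers (8.555 CPM, next 24.87 CPM).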

How the results depend on the processing

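The 802 calls in HNKO became 1517 with library totals in place of TMM, 504 with all 36 libraries, 1233 with mouse as a replicate block, and 443 without and 1219 with that block when only the 12 HNKO libraries were fitted. Higher calls were 158, 152, 488, 167 and 563 in that order, against 289, and lower calls were 1359 with library totals and 276 in the 12 libraries without a block, against 513. The blocked fit of the 12 libraries tested 13171 genes, of which those 563 rose. In that fit 13 of 15 periportal genes, 5 of 24 of fatty acid oxidation and 5 of 15 of the acute phase rose. So did 5 of 36 hepatocyte identity genes and 5 of 19 clock genes. In these lists only 1 gene fell, of hepatocyte identity. Library totals put 10.4% of calls higher, against 36% with TMM, and DESeq2, RLE factors and no filter stayed within 1.5 times. Leaving out 1 mouse gave 526 (without 540) to 967 HNKO calls, 177 (without 552) to 354 higher and 310 (without 540) to 613 lower. The calls were 547 without mouse 562, with 187 higher, and 548 without mouse 566, with 196 higher. In WT, DESeq2 gave 292 higher calls and library totals 84 higher and 554 lower, against 154 and 368, and leaving out 1 mouse gave 300 to 691 calls, 73 to 174 higher and 227 to 535 lower, each lowest without mouse 564. The genotype difference stayed at 0 calls in every alternative, with 455 to 1277 genes at an unadjusted p under 0.05. The mitochondrial mRNA difference of 2.189 points had an exact permutation p of 0.0303 with no replicate block, and was 1.303 to 2.722 points without 1 mouse (exact p 0.0625 to 0.1875). None of the 280 named genes reversed. With the block 39 gained and 1 lost the call, and that one was Cxcl10 among the NF-kB targets. With library totals the medians of the p53, integrated stress response, heat shock, hypoxia, acute phase, P450 and NAD-consuming lists changed sign. The causes were not tested.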

Other observations

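Noncoding genes were counted after many were seen to fall. Of 354 tested lincRNA genes 43 fell (12.1%) and 1 rose, with a median log2 fold change of -0.27 in HNKO and -0.25 in WT. Of 274 antisense genes 24 fell (8.76%) and 1 rose, and of 176 processed transcripts 24 fell (13.6%) and 1 rose. Protein-coding genes fell in 389 of 13005 (2.99%) and rose in 271 (2.08%), and processed pseudogenes fell in 3 of 647 (0.464%) and rose in 1. Zinc finger genes named Zfp with a number fell in 26 of 332 (7.83%) and rose in 4, with Zfp36 among those that rose, beside 8 that fell and 5 that rose in WT, a contrast that was not tested for the group.

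Saa2 was at 500.5 CPM in the liver of mouse 552, and the other HNKO livers were at or under 95.7 CPM. The summed cell cycle genes were also highest in mouse 552, at 766 CPM in CS and 538 CPM in L. Both values were chosen after they were seen.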
